A study of Mus musculus with 3 samples.

Results

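Lamins and the membrane proteins that hold them to the nuclear envelope were read in mouse bone marrow cells of C57Bl/6 origin that the labels call HoxA9-Meis1 AML cells (AML is acute myeloid leukaemia). The 8 genes are Lmna, Lmnb1, Lmnb2, Lbr, Emd, Tmpo, Sun1 and Sun2. They are 8 of 34770 gene and transcript names on the array and are read by 15 of 55657 probes. The members were chosen by a measured value: Lmna had the largest decrease of all genes on 1 treated array, so its differences are given as a description. The cells were kept for 24 h in SFEM medium without treatment, with the compound Pyrydopyrazine A2 at 3.4 µM, or with all-trans retinoic acid (RA) and a 1α-hydroxy derivative of vitamin D3 (D3V) at 10 µM each. All 3 groups are the same leukaemia cells, named for Hoxa9 and Meis1, and the purpose per the labels was to set each treatment against untreated cells. Each group was hybridized to 1 one-colour Agilent array, so no difference below has a replicate check and no test was run.

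The lamins are intermediate filament proteins that form a meshwork under the inner nuclear membrane. Lmna gives lamin A and lamin C by alternative splicing, and Lmnb1 and Lmnb2 give the B-type lamins, which stay farnesylated and attached to the membrane. Lbr, Emd and Tmpo encode membrane proteins (and, for Tmpo, also soluble forms) that bind lamins and chromatin, and the SUN proteins join the lamina to nesprins of the outer membrane in the LINC complex. In blood cells the balance of lamin A/C and the lamin B receptor is known for its part in nuclear shape: mature neutrophils hold little lamin A/C and much lamin B receptor, and loss of the receptor gives hypolobed neutrophil nuclei.

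The array reads each gene through designed 60-base probes, and 4 are shown because the results turn on how single probes behave. All 4 have no stop codon in at least 1 reading frame. Each is written 5′ to 3′ as in the scanner files, and the capitals mark its longest stretch of alternating G and T.
Lmna, chr3:88287262-88287321 (mm9, minus strand): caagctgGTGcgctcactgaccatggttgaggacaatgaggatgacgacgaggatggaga
Emd probe 2, chrX:71501087-71501146 (mm9, plus strand): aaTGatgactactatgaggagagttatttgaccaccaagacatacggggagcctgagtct
Tmpo probe 2, chr10:90615373-90615432 (mm9, minus strand): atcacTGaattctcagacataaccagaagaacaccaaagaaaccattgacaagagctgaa
Sun1 probe 2, chr5:139702685-139702744 (mm9, plus strand): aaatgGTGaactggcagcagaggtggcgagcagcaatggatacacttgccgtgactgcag
The G and T stretches are marked because probes with at least 8 such bases were often low on both treated arrays. Of 250 genes read by such a probe 56.4% were at least 2-fold lower on the array labelled A2, against 5.65% of 17030 genes with a shorter run. The longest run in the 15 member probes was 5 bases, and that of the Lmna probe was 3.

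The names of the treated arrays are in doubt. In rank over the spots, the authors' value table has under the RA+D3V label the same values as the scanner file labelled A2 (Spearman 1), and under the A2 label those of the scanner file labelled RA+D3V (Spearman 1). The arrays are called here by the labels of the scanner files, and no direction below is assigned to a compound. Tgm2, a transglutaminase induced by retinoic acid in many myeloid cells, differed from the untreated array by 6.84 on the log2 scale for the array labelled A2 and by -0.74 on the one labelled RA+D3V. Cyp26a1 and Cyp24a1, the enzymes that break down retinoic acid and active vitamin D, were well above background only on the array labelled A2. Of 59305 spots 46.0% to 46.8% per array were well above background and 0 were saturated. No scanner file has the values of the control column in that table, which is used as a second control. Its SD from the untreated array was 0.284 (log2) over 17005 genes, which is the only spread between untreated values, and its source is not known. Every level of a scanner array below is the processed signal on a log2 scale relative to its array's 75th percentile, and differences are of these levels. For the second control the level is the value table's intensity, which appears quantile normalized, relative to that column's 75th percentile. The SD of 0.284 therefore also holds any difference in processing between the control sources. Hoxa9 and the leukocyte gene Ptprc were above background on every array. Meis1, read by 1 probe, was not above background on any.

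Lmna was far lower on the array labelled A2 than anywhere else. Its level was 5.58 on the untreated array, 5.69 in the second control, 4.88 on the array labelled RA+D3V and -0.77 on the array labelled A2. The A2 level lies far below the other 3, which lie within 1 log2 unit of each other. The processed signals behind them were 14398 (untreated), 7195 (labelled RA+D3V) and 134 (labelled A2), with a scanner error estimate of 10.0%, 10.0% and 10.3% in that order. The log2 difference of the array labelled A2 from the untreated array was -6.35, an 81.7-fold lower signal that left 1.22% of the untreated one. Against the second control the difference was -6.46. This was the lowest value among 17280 genes measured on both arrays, ahead of Crip2, which encodes a LIM domain protein (-4.91).

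Lmna differed far less on the array labelled RA+D3V, where it was at -0.70 from the untreated array, a 1.62-fold lower signal, and from the second control by -0.81. A share of 11.4% of genes lay lower than Lmna in that comparison. Between the treated arrays Lmna was 50.3-fold lower on the one labelled A2 (-5.65), again the lowest of 17631 genes. Under the value table's own labels the 2 treated values change places, with -6.43 for RA+D3V and -0.71 for A2.

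Lmna has 1 probe and 1 spot per array, so nothing on the array repeats its value. The spot on the array labelled A2 held 43 pixels with a mean of 178, a median of 179 and an SD of 33.1 above a local background of 25, and it was not marked as uneven. The mean and median of its pixels are close, as they are on the untreated array (15656 and 15501, also 43 pixels). The 34 spots above background within 4 rows and columns of it had a median difference of -0.17, with a range of -2.99 to 0.98. The scanner file assigns the probe to transcript variant 2 of Lmna, and the splice forms of the gene cannot be told apart with it.

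**Figure D1:**
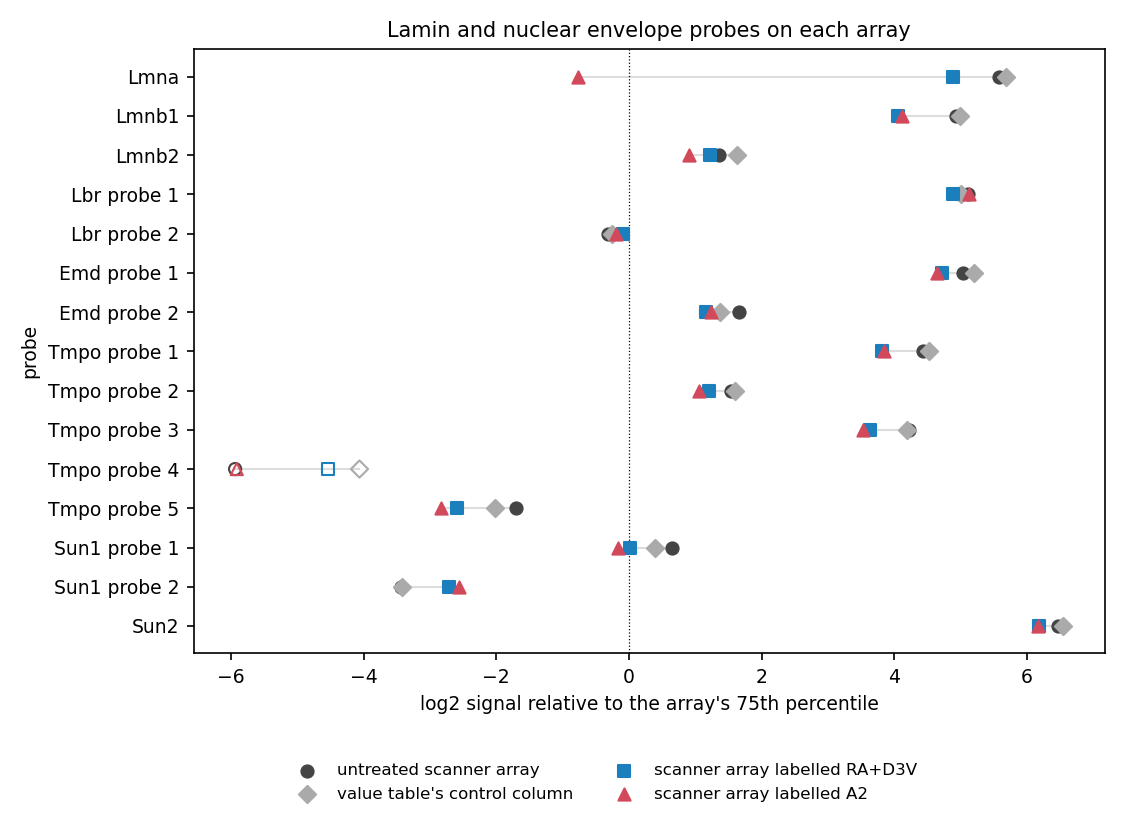
Level of each of the 15 probes (log2 signal relative to the array's 75th percentile, horizontal axis) on the untreated array, in the value table's control column and on the treated scanner arrays; open symbols mark the probe below background on all 3 arrays. Lmna on the array labelled A2 lies at -0.77, apart from its other 3 values (4.88 to 5.69), while the values of any other probe span at most 1.87, that of the Tmpo probe below background.

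The B-type lamins differed far less than Lmna. Lmnb1, which encodes lamin B1, had a level of 4.93 on the untreated array, 4.99 in the second control, 4.12 on the array labelled A2 and 4.06 on that labelled RA+D3V (chr18:56912871-56912930, mm9). Both treated arrays are below both controls. This probe is printed 10 times on each array, and the SD over its spots was 0.033, 0.061 and 0.039 on the untreated, A2 and RA+D3V arrays, so spot error is much smaller than the differences of -0.81 (A2) and -0.87 (RA+D3V). Spots of 1 array do not show the spread between cultures.

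Lmnb2, which encodes lamin B2, had a level of 1.36 on the untreated array, 1.63 in the second control, 0.90 on the array labelled A2 and 1.21 on that labelled RA+D3V (chr10:80365545-80365604). It differed from the untreated array by -0.46 and -0.15. The second of these is smaller than the 0.27 between the control sources.

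Among the lamin-binding membrane proteins, Lbr lay close to its untreated level on both treated arrays. Lbr encodes the lamin B receptor, which also has sterol C14 reductase activity. On its brighter probe (chr1:183745893-183745952) the level was 5.11 on the untreated array, 5.0 in the second control, 5.12 on the array labelled A2 and 4.89 on that labelled RA+D3V, and its other probe lay at -0.31, -0.25, -0.19 and -0.09 in the same order. The 2 probes gave differences from the untreated array of 0.02 and 0.12 on the array labelled A2, and of -0.22 and 0.22 on the array labelled RA+D3V. All of these are smaller than the 0.284 SD between controls. With quantile normalization or normexp background correction the A2 difference of the brighter probe is -0.01 or -0.09, so its sign is not settled.

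Emd encodes emerin, a LEM domain protein whose loss causes a muscular dystrophy in humans. On its brighter probe (chrX:71503023-71503082) the level was 5.04 on the untreated array, 5.20 in the second control, 4.64 on the array labelled A2 and 4.72 on that labelled RA+D3V. Probe 2, shown above, lay at 1.66, 1.37, 1.24 and 1.16 in the same order. Both probes are lower on the treated arrays than in either control, by 0.32 to 0.50 from the untreated array. Against the second control probe 2 differed by only -0.14 and -0.22.

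Tmpo encodes the lamina-associated polypeptides 2, a family of splice forms with a shared LEM domain. Its brightest probe (probe 1, chr10:90610374-90610433) had a level of 4.44 on the untreated array, 4.53 in the second control, 3.84 on the array labelled A2 and 3.82 on that labelled RA+D3V. Probes 1, 2 and 3, which the files assign to transcript variant 3, differed from the untreated array by -0.59, -0.49 and -0.69 on the array labelled A2, and by -0.62, -0.33 and -0.59 on the one labelled RA+D3V. All 3 are lower on both treated arrays than in either control. Probe 5, assigned to variant 1 (chr10:90623722-90623781), is much dimmer and had a level of -1.70 on the untreated array, -2.02 in the second control, -2.83 on the array labelled A2 and -2.60 on that labelled RA+D3V. Its A2 difference of -1.13 was past 2-fold against the untreated array but not against the second control (-0.81). Probe 4, assigned to the zeta form, was not above background on any array.

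Sun1 and Sun2 encode the inner membrane proteins of the LINC complex. Sun2 had a level of 6.46 on the untreated array, 6.55 in the second control, 6.16 on the array labelled A2 and 6.17 on that labelled RA+D3V (chr15:79554574-79554633). The treated arrays differ from untreated by -0.30 and -0.29 and from each other by 0.01. Sun1 gave opposite directions on its 2 probes. Probe 1 (chr5:139724538-139724597) had a level of 0.65 on the untreated array, 0.39 in the second control, -0.16 on the array labelled A2 and 0.02 on that labelled RA+D3V. Probe 2, shown above and upstream of probe 1 on the plus strand, had a level of -3.44 on the untreated array, -3.42 in the second control, -2.56 on the array labelled A2 and -2.71 on that labelled RA+D3V. Probe 1 is thus lower on both treated arrays (-0.81 and -0.63) and probe 2 higher on both (0.88 and 0.73), and the controls of probe 2 differ by 0.01. Probe 2 is dim, with a scanner error of 20.9% on the untreated array. Its accession is that of variant 5, whereas probe 1 is assigned to variant 1. Averaged over both probes Sun1 differed by 0.03 and 0.05, so no direction is given for the gene.

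Read on the brightest probe of each gene, 1 of the 8 genes (Lmna) was at least 2-fold lower on the array labelled A2, and none (0 of 8) was at least 2-fold higher. Over all 17280 genes measured in that comparison 6.39% were at least 2-fold lower and 7.98% at least 2-fold higher. The comparison chose Lmna, so nothing is read from its count. For the array labelled RA+D3V, 0 of 8 were at least 2-fold lower (5.03% of 17281 genes) and 0 at least 2-fold higher (7.82%). On the same probes 7 of 8 genes, Lmna among them, were below the untreated array on the array labelled A2, where 52.0% of all genes were, and 8 of 8 on the array labelled RA+D3V, where 51.7% of all genes were. Without Lmna these counts were 6 of 7 and 7 of 7. They include Sun1 and, for RA+D3V, Lbr, whose probes gave opposite signs: 5 of the 7 (Lmnb1, Lmnb2, Emd, Tmpo and Sun2) were below the untreated array on every detected probe on each treated array. With a gene read as the mean of its probes, 6 of 8 and 7 of 8 were below 0. These comparisons share the untreated array. The median difference of the members was -0.53 on the array labelled A2, or -0.46 without Lmna, and -0.47 on the array labelled RA+D3V, against -0.03 and -0.02 over all genes. With the second control the medians were -0.62 and -0.45, against -0.11 and -0.11 over all genes, and again 7 of 8 and 8 of 8 members were below it, beside 57.7% and 57.6% of all genes. Only Lmna was at least 2-fold lower than the second control on the array labelled A2 (7.21% of all genes) and 0 of 8 on the one labelled RA+D3V (5.34%). Counted over the 14 probes above background, 2 (Lmna and Tmpo probe 5) were at least 2-fold below the untreated array on the array labelled A2, beside 6.16% of 23472 probes, and 11 were below it at all, beside 51.6%. For the array labelled RA+D3V these counts were 0 (4.75% of 23489 probes) and 12 (50.5%).

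Between the treated arrays the 7 genes other than Lmna differed by -0.31 (Lmnb2) to 0.24 (Lbr). Only Lmna of the 8 was at least 2-fold lower on the array labelled A2, against 4.03% of all genes, and 0 were at least 2-fold higher, against 3.79%. The members' median difference there was -0.05, and 5 of 8 were below 0, beside 51.8% of all genes. That count was 7 with quantile normalization or with the percentile taken over detected probes, so it gives no settled direction.

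**Figure D2:**
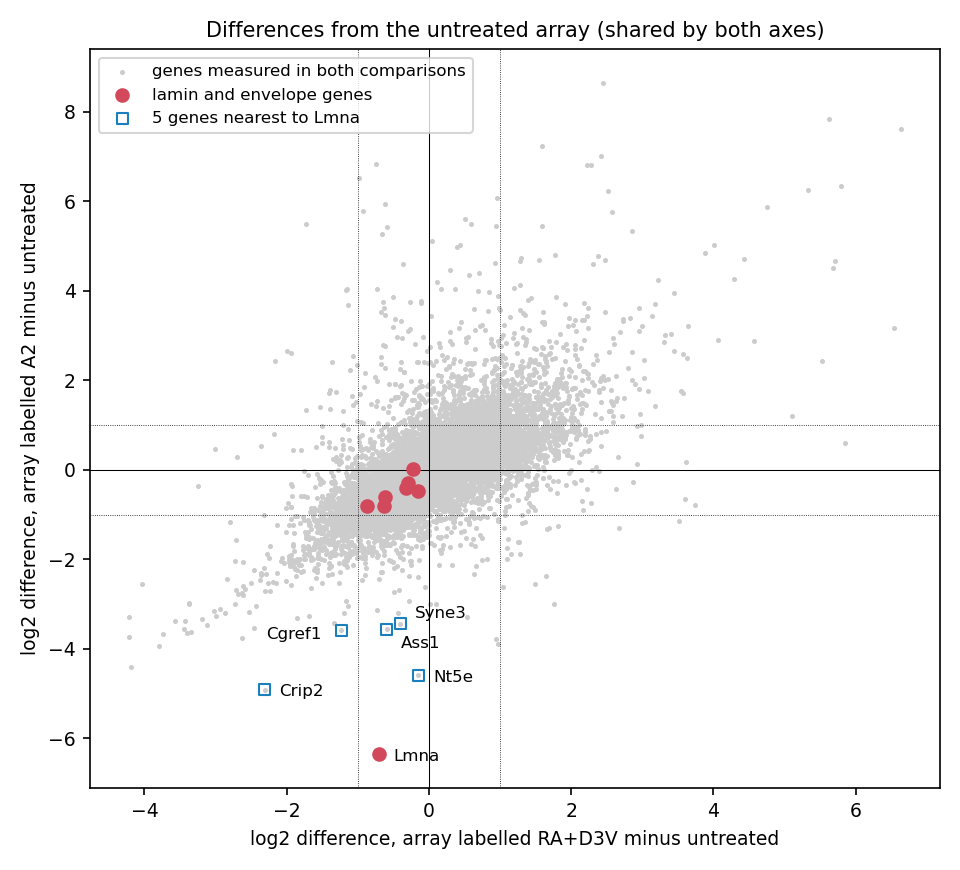
Log2 difference from untreated, with the array labelled RA+D3V on the horizontal axis and the array labelled A2 on the vertical axis, for all genes measured in both comparisons, with the 8 lamin and envelope genes as filled circles and the 5 genes nearest to Lmna as squares; dotted lines mark 2-fold, and both axes share the untreated array. Lmna lies at -0.70 and -6.35, lower on the vertical axis than every other gene, and the other 7 members lie inside the 2-fold lines.

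No gene had differences close to those of Lmna. Likeness was measured as the Euclidean distance between pairs of differences from the untreated array over 17005 genes above background on all 3 arrays, which is 2 values per gene with a shared control. Since Lmna is the lowest gene on the array labelled A2, its nearest genes have to be other very low ones there. They were Nt5e, the ectonucleotidase CD73 (distance 1.85), Crip2 (2.16), the urea cycle enzyme Ass1 (2.80), Cgref1 (2.82) and last of these 5 Syne3 (2.93). Syne3 is described further because it belongs to the nuclear envelope: it encodes nesprin-3, an outer nuclear membrane protein that binds SUN proteins and links the nucleus to plectin and intermediate filaments. Its level was 4.09 (untreated), 3.68 (labelled RA+D3V) and 0.65 (labelled A2). The A2 value is the one that stands apart. Its differences were -3.44 (A2) and -0.40 (RA+D3V), and against the second control -3.61 and -0.57. Only 1 probe reads Syne3, and its longest G and T stretch is 5 bases. The other 4 differed on the array labelled A2 by -4.59 (Nt5e), -4.91 (Crip2), -3.55 (Ass1) and -3.58 (Cgref1), and on the one labelled RA+D3V by -0.15, -2.31, -0.59 and -1.23.

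Of the other LINC and inner membrane genes, 4 of 18 measured were at least 2-fold lower on the array labelled A2 (6.39% of all genes) and none higher (7.98%), with a median of -0.21. They were Syne3, Tmem43 (LUMA, a partner of emerin, -1.30), the inner membrane protein nurim, Nrm (-1.29), and Tmem201, which binds the lamina and SUN proteins (-1.24). A second, dimmer Tmem201 probe differed by only -0.10. For the array labelled RA+D3V it was 1 of 19, Nrm at -1.18 (5.03% of all genes), with 0 at least 2-fold higher beside 7.82% (median -0.08). Tmem43 differed there by -0.12. Between the treated arrays Syne3 (-3.04) and Tmem43 (-1.17) were at least 2-fold lower on the array labelled A2, and the other 16 of 18 lay within 2-fold. Over all genes 4.03% were at least 2-fold lower there and 3.79% higher. The giant nesprins Syne1 (0.45 and 0.35) and Syne2 (-0.17 and 0.36) lay within 2-fold on both treated arrays, although Syne1 was at 1.12 and 1.02 against the second control.

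Prelamin A is farnesylated, trimmed by the protease Zmpste24 and methylated by Icmt. Of the 8 genes of lamin processing, 1 was at least 2-fold lower on each treated array: Fntb, the beta subunit of farnesyltransferase (-1.33 for the array labelled A2 and -1.21 for the one labelled RA+D3V, where it was -0.98 from the second control). Narf, whose product binds farnesylated prelamin A, was the 1 gene at least 2-fold higher on each (2.17 and 1.85). In a list of 8, a single gene each way is close to the shares over all genes (6.39% lower and 7.98% higher for A2, 5.03% and 7.82% for RA+D3V). Zmpste24 differed by -0.75 and -0.83, Rce1, which cleaves the farnesylated end, by -0.65 and -0.75, and Icmt by -0.06 and -0.23. Dimmer Icmt probes were at 0.60 and 0.29, and at -0.39 and -0.02, so its sign is not settled. Casp6, the caspase known to cut lamin A, differed by -0.21 and 0.91, and was at -1.12 on the array labelled A2 relative to the one labelled RA+D3V. The medians were -0.18 and -0.32.

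Most nuclear pore genes lay slightly lower on both treated arrays. On the array labelled A2 25 of 30 were below the untreated level, 3 of them at least 2-fold (median -0.50), and on the one labelled RA+D3V 26 of 30 and 2 (median -0.36). Over all genes 52.0% and 51.7% were below the untreated array and 6.39% and 5.03% at least 2-fold lower. None was at least 2-fold higher on its brightest probe, but a second probe of Tpr, a basket protein, was at 1.20 on the array labelled RA+D3V, where its brightest was at -0.11. Nup37 of the Y complex (-1.40 and -1.51) and the membrane-facing Nup35 (-1.25 and -1.30, with -1.16 and -1.14 on its other probe) were lowest on both. Nup160, also of the Y complex, was at -1.01 on the array labelled A2 but at -0.67 against the second control. The chromatin partners, which include the heterochromatin proteins Cbx1, Cbx3 and Cbx5 and the DNA-bridging factor Banf1, all lay within 2-fold, with medians of -0.05 and 0.12, or -0.25 and -0.18 against the second control, so the sign of the second is not settled. Banf1, which LEM domain proteins bind, differed by -0.81 and -0.70. Cbx3 (-0.64 and -0.64) and Cbx5 (0.19 and 0.49) had the opposite sign on their other probes (0.35 and 0.81, and -0.35 and -0.59). Cbx1 (-0.30 and -0.37) was at -0.23 and -0.15, and at 0.01 and 0.53, on its dimmer probes.

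Late sterol synthesis is where the second activity of Lbr lies. Tm7sf2, the other sterol C14 reductase of the mouse, was at least 2-fold higher on both treated arrays (2.09 and 1.88, with 2.04 and 1.80 on its second probe), whereas Lbr stayed near 0. On the array labelled A2 Sc5d (1.69) and Nsdhl (1.21) were also at least 2-fold higher, which made 3 of 9. On the other treated array Nsdhl (1.02) was, which made 2 of 9, although its second probe was at 0.90. Over all genes 7.98% and 7.82% were at least 2-fold higher. None of the 9 was at least 2-fold lower. The medians were 0.63 and 0.57.

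**Figure D3:**
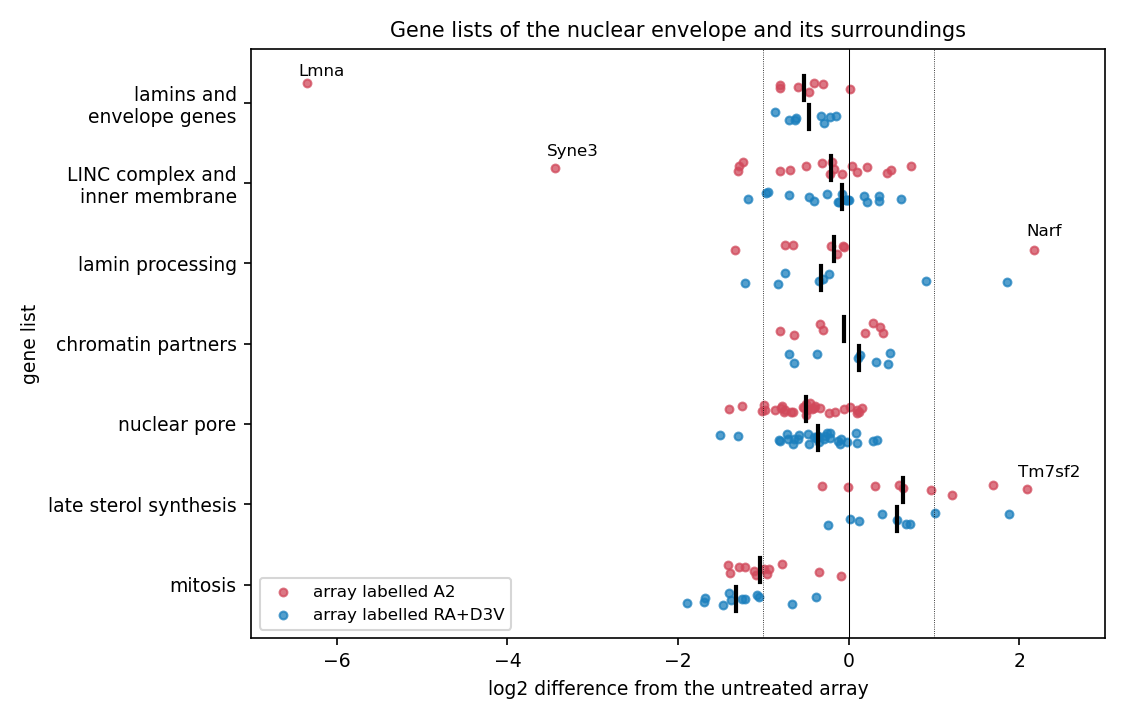
Log2 difference from the untreated array (horizontal axis) for the lamin and envelope genes and for 6 lists, with 1 point per measured gene, red for the array labelled A2 and blue for the array labelled RA+D3V; black bars are medians and dotted lines mark 2-fold. Lmna (-6.35) and Syne3 (-3.44) on the array labelled A2 stand apart from their lists, and mitosis genes have the lowest medians (-1.04 and -1.32).

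Mitosis genes, whose products act when the lamina is taken apart and rebuilt, were lower on both treated arrays. All 12 measured lay below the untreated array on each, 6 by at least 2-fold on the array labelled A2 (median -1.04) and 10 on the one labelled RA+D3V (median -1.32), beside 6.39% and 5.03% of all genes at least 2-fold lower and 52.0% and 51.7% below 0. Against the second control 5 and 9 were at least 2-fold lower, beside 7.21% and 5.34% of all genes. Ccnb1, among the 10, was at -1.25 on its brightest probe and at -1.22 and -0.62 on its others. On the array labelled A2 Cdc20 (-1.41), Top2a (-1.39) and Prc1 (-1.29) were lowest, and on the one labelled RA+D3V Cdc20 (-1.89), Ccna2 (-1.70) and Kif23 (-1.69). Their part in the differences of Lmnb1 and Tmpo was not tested.

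Lmna is abundant in stromal cells, so markers of other cells that whole bone marrow could hold are given beside it. In bulk RNA, fewer cells of a type and less RNA per cell cannot be told apart. Of 11 stromal and fibroblast markers 4, 5 and 4 were above background on the untreated, A2 and RA+D3V arrays. Their summed log2 signal was 8.32, 6.66 and 8.02, most of it from Vim, an intermediate filament gene that leukocytes express too (differences of -1.70 and -0.31). Of the 11, Dcn, Lum, Pdgfra, Col3a1 and Cxcl12 were not above background on any array. The other 5 did not move together. Thy1, also a T cell gene, differed by -1.94 and -1.39. Lepr differed by 0.67 and 1.04, but by -0.14 and 0.23 against the second control. Pdgfrb was above background on the untreated array only, Col1a1 only on the array labelled A2, and Col1a2 on both treated arrays. Of the 6 endothelial markers Cdh5, Emcn and Tek were below background on all arrays, and the summed log2 signal was 2.79, 3.67 and 3.54 in the same order. Vwf, above background on every array, was higher on both treated arrays (3.70 and 1.91, or 3.65 and 1.86 against the second control). Kdr differed from the untreated array by 0.60 and 0.67, and Pecam1 by 0.01 and 0.81. Against the second control Kdr was at 0.18 and 0.25, and Pecam1 at 0.30 and 1.11. Summed T and NK markers were at 4.39, 4.33 and 3.81, carried by Nkg7 and Cd3e. Of the 5 measured on the array labelled A2 3 were at least 2-fold lower (Cd2 at -1.80, Cd3d at -1.85 and Gzma at -2.08), beside 6.39% of all genes. The median of the 5 was -1.80, and Cd3g was above background on the untreated array only. For RA+D3V 2 of 4 were at least 2-fold lower (Cd2 at -1.89 and Cd3d at -1.55), beside 5.03% of all genes. A second Nkg7 probe was at -0.20 and -1.36, where its brightest was at 0.22 and -0.56. Summed B cell markers were at 4.49, 4.47 and 3.89, and summed erythroid markers at 2.24, 1.49 and 1.48, carried by Hba-a1 (-0.75 and -0.70). Of 3 erythroid markers measured on the array labelled A2 2 were at least 2-fold lower (Car2 at -1.72 and Hbb-b1 at -1.05), beside 6.39% of all genes. For RA+D3V it was 1 of 2 (Hbb-b1 at -1.10), beside 5.03%. Alas2 was above background on the untreated array only, Klf1 only on the array labelled A2, and Epor on both treated arrays. Of 15 AML and myeloid markers 14 were above background on every array, and their sum was at 10.5, 9.61 and 10.1. The integrin Itgam (2.38 and 2.31) was higher and myeloperoxidase, Mpo (-2.22 and -1.57), lower on both treated arrays. The neutrophil gene Ly6g was at 1.90 and 0.38, and Cebpe, a transcription factor of granulocyte maturation, at 0.72 and 0.91. Ly6g is dim, with a level of -2.95 on the untreated array, and was at 1.61 and 0.10 against the second control. Other myeloid markers differed in direction. Elane was at -0.85 and -0.96, Csf3r at -0.002 and 0.49, and Cebpa at -0.98 and 0.41. Adgre1 was at 1.14 and 1.75, Csf1r at 0.70 and 0.59, Spi1 at -0.12 and -0.38, and Ptprc at -0.17 and 0.19. Hoxa9 was at 1.19 and 0.38, with 1.83 and -0.33 on its other probe. The progenitor genes Kit, at 1.70 and 0.42, and Cd34, at -1.29 and 0.67, did not go one way. Of the 14 measured, 5 were at least 2-fold higher and 2 lower on the array labelled A2, and 2 and 1 on the one labelled RA+D3V. The part of these markers in the Lmna difference was not tested.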

How the data were processed

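RNA of the 3 groups was measured on 1-colour Cy3 Agilent arrays with probe positions in build mm9. Per the submitters' processing notes and the file headers, the deposited intensity was made with Agilent Feature Extraction 11.5.1.1 and was background-subtracted and spatially detrended, with no scaling between arrays. Deposited flags of 0 or 1 (other values of the authors' files) mark spots above background, saturated or uneven. The authors' value table holds an intensity that appears quantile normalized. All 3 files carry 1 scan time, so no scan batch could be separated.

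Control spots and outlier-flagged spots were left out, spots of a probe were averaged as log2, and each array's 75th percentile was subtracted. Names came from RefSeq by accession (27646 probes), symbol (3400) or synonym (321), and the rest kept the file's name (24290). A gene is read on its brightest probe, and is measured where that probe is well above background on both arrays compared. Pandas 2.3.3 and limma 3.58.1 (normexp, offset 50) were used. Spot averaging, scaling to the 75th percentile and differences on the brightest probe were tested on simulated data. The alternatives, lists and distances were not. No test was run with 1 array per group, and the number of arrays limits precision. Alternatives were normexp, quantile normalization, a percentile over detected probes, the mean of a gene's probes, a filter on all arrays, G and T probes left out, the second control, and the value table under its own labels. The members and lists were chosen with earlier results of these data known. All members are named, with up to 3 highest and 3 lowest genes past 2-fold of each list and the 5 nearest to Lmna; others were named after their values were seen.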

Additional observations from a re-analysis of the deposited data

How the results depend on the processing

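No paired analysis was possible because each condition has 1 array, and no replicate could be left out. The Lmna difference of the array labelled A2 stayed between -5.93 (normexp) and -6.46 (second control) from untreated under the alternatives that keep the scanner labels. From the array labelled RA+D3V it was -5.12 with normexp. With the value table's own labels Lmna was at -0.71 for A2 and -6.43 for RA+D3V, and the difference between them turned to 5.72, which follows from the exchanged labels. Members at least 2-fold lower were then 0 for A2 (4.84% of all genes) and 1 for RA+D3V (6.26%). Between the treated columns 0 were at least 2-fold lower (3.54%) and 1 at least 2-fold higher (3.43%). List medians that moved by more than the 0.284 SD under those labels were, from the control, chromatin partners (-0.28) and mitosis (-0.99) for RA+D3V, and between the treated columns nuclear pore (0.21), late sterol synthesis (-0.16) and mitosis (-0.24). Under the scanner labels the listed medians between the treated arrays were -0.16, 0.21 and 0.30 in the same order. Their opposite signs follow from the exchanged labels. With the second control the chromatin partners on the array labelled RA+D3V had a median of -0.18. Why that median changed with the control was not tested. With normexp the number of genes at least 2-fold apart was 1286 in place of 2221 on the array labelled RA+D3V, and 822 in place of 1379 between the treated arrays, where 325 lower and 497 higher stand in place of 710 and 669. Another percentile base, quantile normalization, the filter on all 3 arrays and leaving out G and T probes moved none of 48 values each, by more than that SD for a difference or 1.5 times for a count. Averaging the probes of a gene moved the Sun1 differences only (0.03 and 0.05). Dim probes such as Sun1 probe 2 and Tmpo probe 5 lie close to background, which limits their folds.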

Other observations

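The protein-coding genes beside Lmna on chromosome 3, in the order of RefSeq's GRCm38.p6 table, did not share its level on the array labelled A2. Mex3a, next to it on one side, differed from the untreated array by -1.11 and Sema4a on the other side by 1.64. Pmf1 (-0.53), Slc25a44 (0.21), Lamtor2 (0.89) and Ubqln4 (-0.76), within 4 genes on either side, lay within 2-fold, and Bglap and Rab25 were not measured on both arrays. On the array labelled RA+D3V all 6 measured neighbours lay within 2-fold, from -0.82 (Pmf1) to 0.92 (Sema4a). These genes were chosen for their position after the Lmna value was known.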
